A study of Mus musculus with 10 samples.

Results

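Homing receptors and integrins steer leukocytes and leukaemia cells into the bone marrow and hold them there. The genes described here are Cxcr4, Ccr7, Selplg, Itga4, Itgb1, Itgal, Itgb2, Cd44 and S1pr1. Every probe set whose platform gene symbol is one of these 9 names was taken (Edg1, an older name, counts as S1pr1), which gave 22 of the 45101 probe sets on the array. Itgb1 had 6 probe sets, Itga4 had 5, Cd44 had 4, Itgal had 2, and the other genes had 1 each.

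The samples were 10 arrays of mouse acute lymphoblastic leukaemia (NSTY ALL), 1 array per animal, from cells sorted on green fluorescent protein out of the bone marrow. In the allogeneic group, 5 recipients had received leukaemia mixed with C3.SW marrow and spleen cells. In the syngeneic group, the donor marrow and spleen cells of 5 recipients were C57BL/6. All recipients were C57BL/6 mice given total body irradiation and 5-fluoruracil. All leukaemia was of C57BL/6 background, carried human p210 bcr/abl and had a deletion in the Ink4a/Arf locus, and it had gone through 3 serial transplants of 2 to 3 weeks each before RNA was taken. The labels state no ages, and they do not say if leukaemia within a group came from 1 earlier recipient, so p-values measure the spread between these arrays. The comparison asks how the allogeneic immune environment, set against the syngeneic one, changed expression in the leukaemia.

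CXCR4 is the receptor for CXCL12, the chemokine made by marrow stroma, and is the main retention signal for B-cell precursors in the marrow. CCR7 responds to CCL19 and CCL21 and draws lymphocytes to lymph nodes, and S1PR1 responds to sphingosine-1-phosphate and lets them leave tissue for the blood. PSGL-1 (Selplg) and CD44 carry the sugars that selectins bind when a cell rolls on a vessel wall. The integrins VLA-4 (Itga4 with Itgb1) and LFA-1 (Itgal with Itgb2) then arrest the cell on VCAM-1, fibronectin and ICAM-1.

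The RefSeq table of promoters (GRCm38.p6) held 4 of the 9 genes, Cxcr4, Itga4, Itgb1 and Cd44, and the 250 bases before each start were searched on both strands. Interferon-inducible genes are a known response to alloreactive T cells, so the gamma-activated site TTCNNNGAA and the interferon-stimulated response element were searched first. Neither was found in any of the 4 windows. Of 32817 promoters, 7.01% held the first and 2.97% the second. The hypoxia response core was searched as ACGTG and GCGTG because Cxcr4 is a known target of hypoxia-inducible factors. It was found as GCGTG at -39 in Cxcr4 and as ACGTG at -29 in Cd44, and these matches are in capitals below. The first form occurred in 16.6% of promoters and GCGTG in 28.1%. These 2 windows are shown because they hold the matches, on the minus strand at chr1:128592300-128592549 and chr2:102901666-102901915. A match is only a run of letters.
Cxcr4: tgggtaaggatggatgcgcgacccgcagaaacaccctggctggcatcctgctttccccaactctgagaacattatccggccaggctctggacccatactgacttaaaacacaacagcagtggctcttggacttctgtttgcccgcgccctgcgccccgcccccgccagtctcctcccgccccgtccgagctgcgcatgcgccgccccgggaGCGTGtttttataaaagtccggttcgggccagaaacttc
Cd44: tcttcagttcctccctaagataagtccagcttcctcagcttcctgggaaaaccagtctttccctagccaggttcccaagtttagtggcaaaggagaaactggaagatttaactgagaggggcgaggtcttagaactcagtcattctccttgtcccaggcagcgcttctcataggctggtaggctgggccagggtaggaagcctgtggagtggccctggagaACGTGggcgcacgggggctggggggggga

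Levels are log2 intensities after quantile normalization between arrays, and differences are allogeneic minus syngeneic on that log2 scale. A probe set was held to be well above background on an array if it exceeded that array's limit, set at the 95th percentile of its 27 bacterial control probe sets. Limits ran from 4.50 to 5.09 on allogeneic arrays and from 4.70 to 5.32 on syngeneic arrays. Of the 22 probe sets, 18 exceeded the limit on all 10 arrays and 21 on at least 1. Precision is limited by the number of arrays. Brightness depends on the probes, so differences were read within a probe set. The sums over marker genes and the choice of the brightest marker mix probe sets and serve as description only.

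The leukaemia label held in the markers of B-cell precursors. Of 11 measured markers, 10 exceeded the limit on all arrays, and Vpreb1, a surrogate light chain gene, had levels of 13.65 to 13.73 in allogeneic and 13.59 to 13.67 in syngeneic samples. The exception was Pax5, a B-lineage transcription factor. Arrays did not share a common low end: the lower quartile of deposited intensity was 18.7 to 19.5 on allogeneic arrays 1, 3 and 4, against 13.95 and 14.18 on allogeneic arrays 2 and 5 and 13.75 to 14.41 on syngeneic arrays. By limma, 185 of 45037 probe sets passed an adjusted p of 0.05. Leaving out allogeneic animal 1 gave 2035, and leaving out allogeneic animals 1, 3 and 4 also gave 2035. Values from a fit without animals 1, 3 and 4, which leaves 2 allogeneic animals, are given for genes of the homing and pathway lists where the difference moved by over 1.5 times or the call changed.

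None of the 22 probe sets passed limma's test over all probe sets, where 0.411% of probe sets passed. At an unadjusted p under 0.05 there were 3 (Cd44 1452483_a_at, Cd44 1423760_at and Itga4 1436037_at), against 16.9% of all probe sets. Groups did not overlap for 1 of the 22, against 4.74% of all probe sets. The median difference of the 22 was 0.20, with 17 above 0, and over all probe sets it was -0.014, with 48.5% above 0. Since several probe sets read the same gene, these counts are not independent. At the leading probe set of each gene, 7 of the 9 genes had a difference above 0, with a median of 0.094. Over all genes the median was 0.011, with 51.2% above 0.

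**Figure D1:**
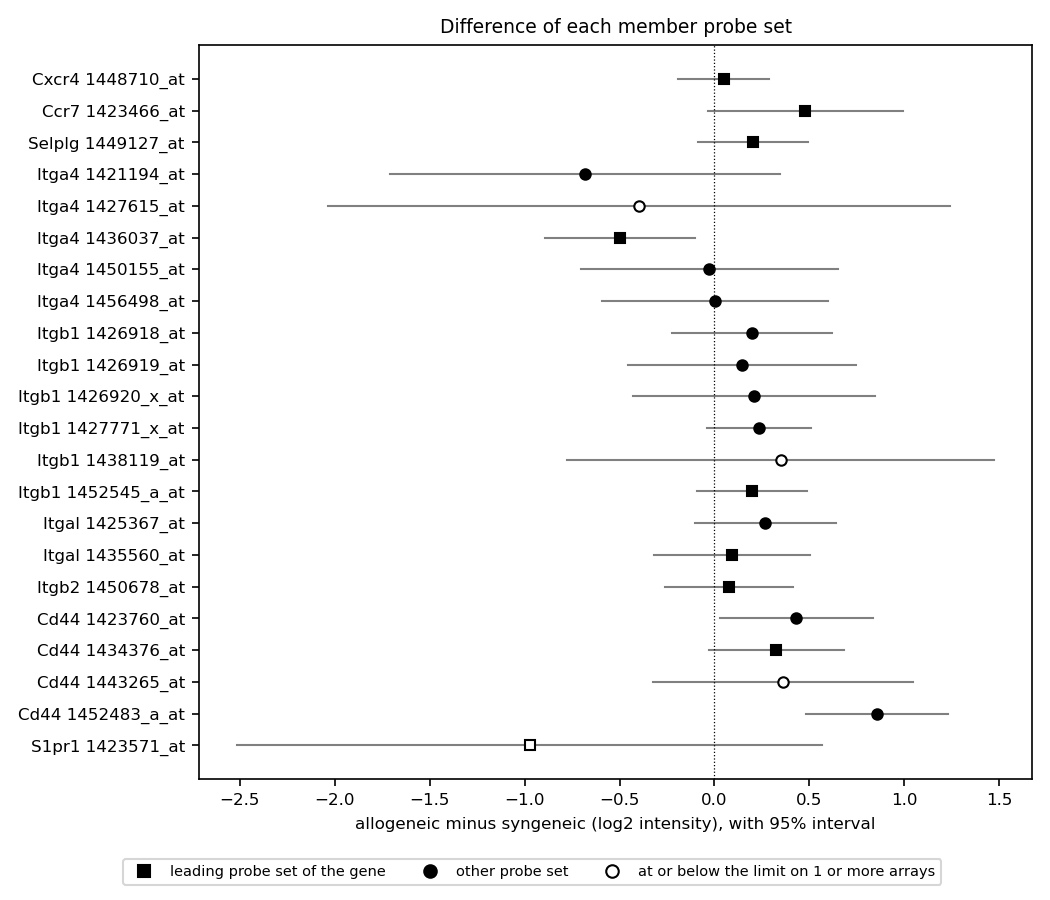
Difference of each of the 22 probe sets, allogeneic minus syngeneic on the log2 scale, with its 95% interval from limma (5 animals per group). Squares are leading probe sets, and open symbols did not exceed the background limit on every array. Intervals of Cd44 1452483_a_at and Cd44 1423760_at lie above 0, that of Itga4 1436037_at lies below 0, and the other 19 include 0.

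Among the chemokine receptors, Cxcr4 had nearly the same level in every animal. Its log2 levels were 13.07, 12.95, 13.05, 13.07 and 12.96 in allogeneic animals 1 to 5, and 12.98, 12.86, 12.97, 13.08 and 12.96 in syngeneic animals 1 to 5. The 2 ranges overlapped almost wholly. The difference was 0.049 (SE 0.107), and its 95% interval of -0.19 to 0.29 allows a fold of 0.877 to 1.22 (adjusted p = 0.856). It was -0.017 without allogeneic animals 1, 3 and 4.

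Ccr7 levels were higher in allogeneic leukaemia, but the difference did not pass the test. They were 9.15, 9.74, 9.67, 9.53 and 9.99 in allogeneic animals, against 8.80, 9.12, 8.998, 9.85 and 8.91 in syngeneic animals. All 5 allogeneic values lay above those of syngeneic animals 1, 2, 3 and 5, while syngeneic animal 4 lay above 4 of the 5 allogeneic values. The difference was 0.48 (SE 0.23, 95% interval -0.034 to 0.99, adjusted p = 0.325). Without syngeneic animal 4 it was 0.66 (adjusted p = 0.180), and without allogeneic animals 1, 3 and 4 it was 0.74 (adjusted p = 0.183). In sorted bulk samples, fewer cells of a type and less RNA per cell cannot be told apart.

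S1pr1, the egress receptor, separated the allogeneic animals from each other. Its levels were 3.66, 6.54, 2.99, 6.00 and 6.51 in allogeneic animals 1 to 5, and 5.83, 6.21, 6.22, 6.52 and 5.77 in syngeneic animals 1 to 5. The probe set was not well above background in allogeneic animals 1 and 3, where the limits were 4.50 and 4.53, and it was above the limit on the other 8 arrays. The SD was 1.69 in the allogeneic group and 0.312 in the syngeneic group. The difference of -0.97 (SE 0.692, 95% interval -2.51 to 0.57, adjusted p = 0.505) did not pass, and without allogeneic animals 1, 3 and 4 it was 0.43 (adjusted p = 0.317). The arrays of animals 1 and 3 are among the 3 with a raised low end. Allogeneic animal 4, which also has a raised low end, had an S1pr1 level within the syngeneic range. On the deposited scale the values of animals 1 and 3 were also the lowest of the 10, and the part of the low end in this result was not tested.

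Selplg, which encodes the main ligand of P-selectin on leukocytes, had levels of 11.87, 12.11, 12.03, 11.80 and 12.08 in allogeneic samples, against 11.62, 11.82, 11.99, 11.81 and 11.64 in syngeneic samples. Allogeneic animals 2, 3 and 5 lay above every syngeneic animal, and the other two lay within the syngeneic range. The difference was 0.20 (SE 0.129, 95% interval -0.085 to 0.49, adjusted p = 0.458), or 0.32 without allogeneic animals 1, 3 and 4 (adjusted p = 0.241).

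**Figure D2:**
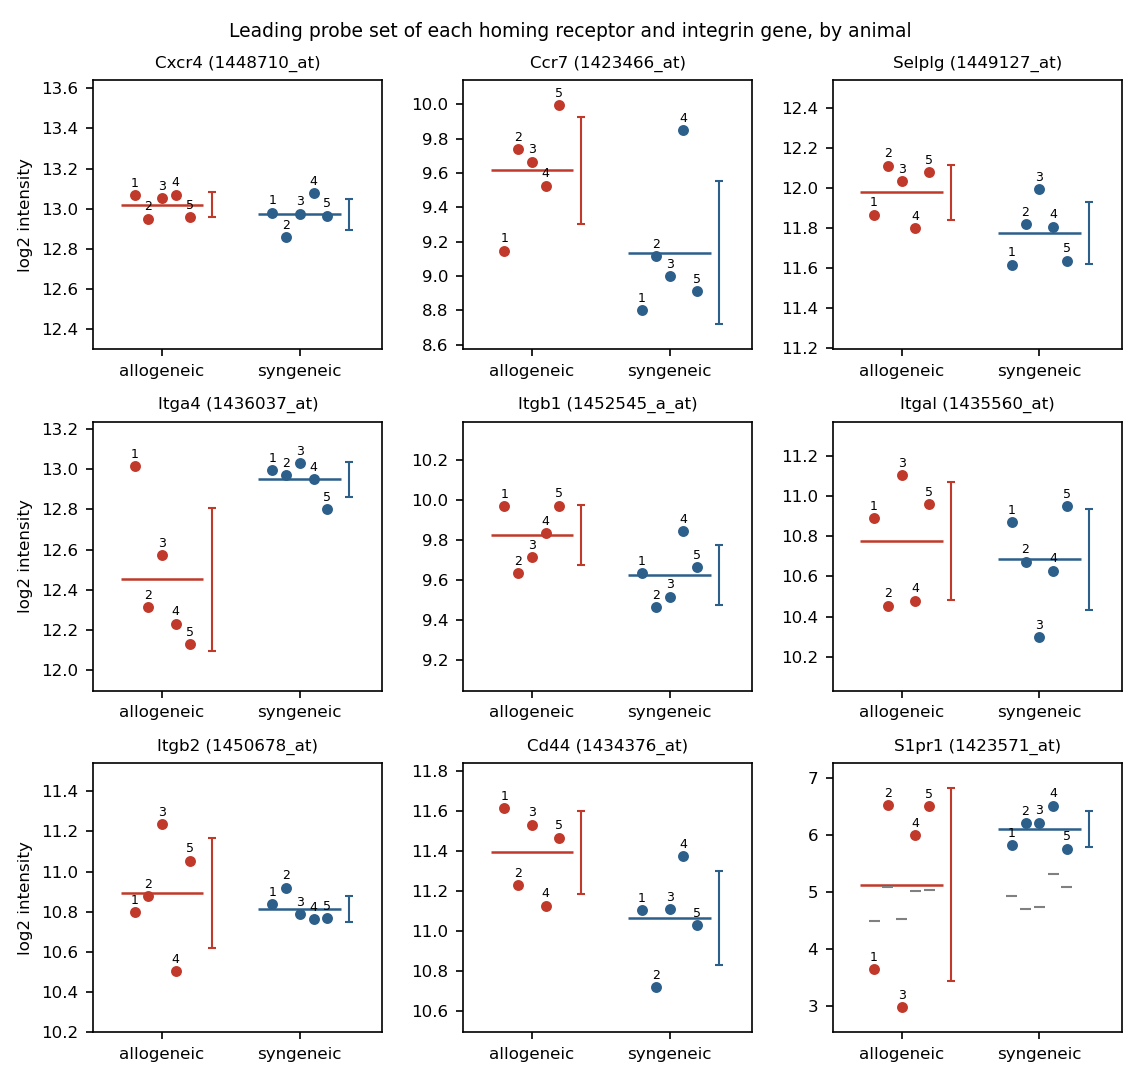
Log2 intensity of the leading probe set (highest mean over all arrays) of each gene, 1 point per animal with its number, allogeneic left and syngeneic right. Horizontal lines are group means, bars beside them are SD (n = 5 each), and short grey marks in the S1pr1 panel are the background limit of each array. Allogeneic animals 1 and 3 lie below the limit for S1pr1, and allogeneic animals 2 to 5 lie below all syngeneic animals for Itga4. Each panel has its own axis range.

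Itga4, the alpha chain of VLA-4, had its leading probe set lower in 4 of 5 allogeneic animals. Levels of 1436037_at were 13.02, 12.31, 12.57, 12.23 and 12.13 in allogeneic animals 1 to 5, against 13.00, 12.97, 13.03, 12.95 and 12.80 in syngeneic animals 1 to 5. Allogeneic animal 1 lay within the syngeneic range, and allogeneic animals 2 to 5 lay below all syngeneic animals. The difference was -0.50 (SE 0.177, 95% interval -0.89 to -0.10, adjusted p = 0.203), a fold of 0.708. Without allogeneic animal 1 it was -0.64 and passed (adjusted p = 0.0309). It also passed without allogeneic animals 1, 3 and 4 (-0.73, adjusted p = 0.0395) and with array weights (-0.59, adjusted p = 0.0498). These were the only 3 of 20 other settings in which it passed, and the highest adjusted p was 0.4999. Over all probe sets, 2035, 2035 and 1398 passed in these 3 settings, against 185 in the main fit.

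The other 4 probe sets of Itga4 gave differences from -0.68 to 0.0018. The probe set 1421194_at had a difference of -0.68 (SE 0.461), with 8.47 to 10.71 in allogeneic and 9.55 to 11.21 in syngeneic samples. For 1450155_at the difference was -0.028 (SE 0.304) and for 1456498_at it was 0.0018 (SE 0.267). In both of these, allogeneic animal 1 had the highest level of all 10 arrays, at 10.29 and 8.76. For 1450155_at, allogeneic animals 2, 4 and 5 (8.94, 9.07 and 8.62) lay below all syngeneic animals. The dimmer 1427615_at differed by -0.40 (SE 0.736), and allogeneic animal 3 alone fell below the limit, at 3.46. Adjusted p-values of these 4 ran from 0.484 to 0.999, so the 5 probe sets of Itga4 disagreed in size and the mean over all of them differed by -0.32 (adjusted p = 0.4999). Without allogeneic animals 1, 3 and 4 the differences were -1.13 for 1421194_at (adjusted p = 0.318), -0.57 for 1450155_at (adjusted p = 0.179), -0.60 for 1456498_at (adjusted p = 0.0651) and 0.070 for 1427615_at (adjusted p = 0.951).

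Itgb1, the beta chain that VLA-4 shares with several other integrins, had small positive differences. The leading probe set 1452545_a_at had levels of 9.97, 9.63, 9.71, 9.83 and 9.97 in allogeneic samples, against 9.63, 9.46, 9.52, 9.84 and 9.66 in syngeneic samples. The ranges overlapped, and syngeneic animals 2 and 3 lay below all allogeneic animals. The difference was 0.20 (SE 0.131, 95% interval -0.092 to 0.49, adjusted p = 0.471). The other 4 probe sets above the limit on all arrays differed by 0.15 to 0.24, with adjusted p-values from 0.362 to 0.827. Without allogeneic animals 1, 3 and 4, 1426919_at and 1426920_x_at differed by -0.34 and -0.37 (adjusted p = 0.499 and 0.431). Of those, 1426920_x_at and 1427771_x_at are of a class whose probes can match other transcripts. The sixth, 1438119_at, stayed under the limit on all 10 arrays.

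Among the leading probe sets, those of the LFA-1 chains had the smallest differences after Cxcr4. Itgal, the alpha chain, had levels of 10.89, 10.45, 11.10, 10.48 and 10.96 in allogeneic samples, against 10.87, 10.67, 10.30, 10.63 and 10.95 in syngeneic samples for 1435560_at. The groups overlapped, with a difference of 0.094 (SE 0.185, 95% interval -0.32 to 0.50, adjusted p = 0.837). The dimmer Itgal probe set 1425367_at differed by 0.27 (SE 0.167, adjusted p = 0.446). Without allogeneic animals 1, 3 and 4 the Itgal differences were 0.024 and 0.45, and that of Itgb2, described next, was 0.15 (adjusted p-values from 0.188 to 0.962). Itgb2, the beta chain of LFA-1 and of the myeloid integrins, had levels of 10.80, 10.88, 11.24, 10.50 and 11.05 in allogeneic samples, against 10.84, 10.92, 10.79, 10.76 and 10.77 in syngeneic samples. Its difference was 0.078 (SE 0.151, 95% interval -0.26 to 0.41, adjusted p = 0.834), and the allogeneic SD was 0.276, against a syngeneic SD of 0.065.

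Cd44, the hyaluronan receptor, had higher mean levels in allogeneic leukaemia at all 4 probe sets, and 1 of them did not overlap between the groups. Levels of 1452483_a_at were 8.90, 9.28, 9.39, 9.31 and 9.55 in allogeneic animals, against 8.08, 8.40, 8.34, 8.66 and 8.66 in syngeneic animals. Every allogeneic animal exceeded every syngeneic animal. The difference was 0.86 (SE 0.169, 95% interval 0.48 to 1.23), a fold of 1.81, but it did not pass over all probe sets (adjusted p = 0.0690). It passed in 6 of 18 other settings, with differences from 0.77 to 1.00 and adjusted p-values from 0.0172 to 0.177 over all 18. Without allogeneic animal 1 it was 0.96 (adjusted p = 0.0172), and without allogeneic animals 1, 3 and 4 it was 1.00 (adjusted p = 0.0469).

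The brighter Cd44 probe sets differed by less. Levels of the leading probe set 1434376_at were 11.61, 11.23, 11.53, 11.13 and 11.47 in allogeneic samples, against 11.11, 10.72, 11.11, 11.38 and 11.03 in syngeneic samples. The difference was 0.33 (SE 0.16, 95% interval -0.030 to 0.68, adjusted p = 0.335). Levels of 1423760_at were 11.22, 10.58, 10.79, 10.81 and 10.73 in allogeneic samples, against 10.42, 10.05, 10.28, 10.86 and 10.37 in syngeneic samples. That difference was 0.43 (SE 0.181, 95% interval 0.028 to 0.83, adjusted p = 0.266). In both, all allogeneic values lay above syngeneic animals 1, 2, 3 and 5 and syngeneic animal 4 lay within the allogeneic range, as for Ccr7. Without syngeneic animal 4 the differences were 0.40 (adjusted p = 0.290) and 0.54 (adjusted p = 0.202). The fourth, 1443265_at, exceeded the limit on 3 allogeneic and 1 syngeneic arrays and differed by 0.36 (SE 0.307, adjusted p = 0.586). Without allogeneic animals 1, 3 and 4 the difference was 0.92 for 1443265_at (adjusted p = 0.0714) and 0.27 for 1423760_at (adjusted p = 0.513).

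Macrophages also express Cd44, so their markers were read beside it. The summed normalized intensity of the 13 measured macrophage and monocyte markers was 12579 to 14300 in allogeneic samples, against 9035 to 11449 in syngeneic samples, and these ranges did not overlap. Of the 13, 7 had a positive and 6 a negative difference, 0 passed the test (2 at an unadjusted p under 0.05) and the median was 0.20. Adgre1, a macrophage surface receptor gene, exceeded the limit on 3 allogeneic and 0 syngeneic arrays, and Cd14 on no array. Mpeg1 had mean levels of 12.63 in allogeneic and 11.95 in syngeneic samples (adjusted p = 0.186), and Fcgr3 had 12.46 and 12.25. These were by far the brightest markers, so the sums rest mostly on them and do not describe all 13. Of the other markers above the limit on all arrays, Csf1r, Cd68 and Vcam1 differed by -0.11, -0.19 and -0.29, and Lyz2 and C1qc by 0.33 and 0.55. The median deviation of the markers from their syngeneic means was -0.32, 0.99, -0.16, 0.48 and 0.56 in allogeneic animals 1 to 5. It was lowest in animal 1 and highest in animal 2, while the 1452483_a_at level was lowest in animal 1 and highest in animal 5. The part of these cells in the Cd44 values was not tested.

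**Figure D3:**
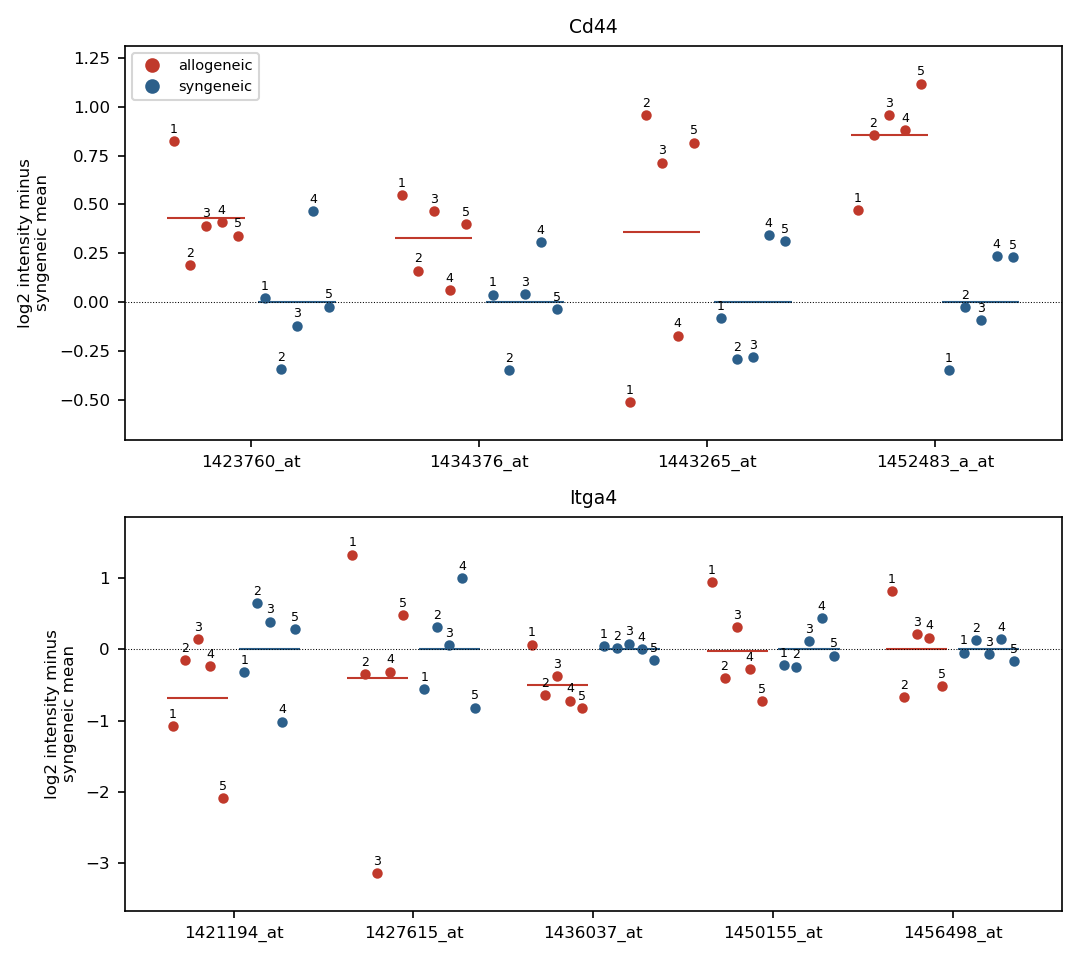
Probe sets of Cd44 (top) and Itga4 (bottom), as log2 intensity minus the syngeneic mean of that probe set. Each point is 1 animal with its number, allogeneic left and syngeneic right within each probe set, and lines are group means. For Cd44 1452483_a_at all allogeneic animals lie above all syngeneic ones, and for the Itga4 probe set 1436037_at allogeneic animal 1 lies with the syngeneic animals.

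The spread between animals was also compared, without a test. Among the 18 probe sets above the limit on all arrays, the SD was larger in the allogeneic group for 10. Among all 22847 probe sets above the limit on all arrays it was larger in the allogeneic group for 86.7%. The median ratio of allogeneic to syngeneic SD was 1.07 for the 18 and 1.88 for all.

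Pairs of integrin chains, S1pr1 with its regulators and 2 chemokine receptors were tested for joint variation, and 0 pairs passed. Deviations from the group means over 10 arrays were compared for 5 pairs, each by an exact 2-sided permutation test within groups (14400 rearrangements). For Itgal with Itgb2, Pearson's r was 0.58 (p = 0.130) and Spearman's rho was 0.44 (p = 0.238), and r was 0.46 without the 2 arrays farthest from the Itgal median. For Itga4 with Itgb1, r was 0.091 (p = 0.868) and rho was -0.19 (p = 0.630), and r was 0.51 without the 2 farthest arrays. For Ccr7 with Cxcr4, r was 0.094 (p = 0.824) and rho was -0.091 (p = 0.820), and r was 0.33 without the 2 farthest arrays. S1pr1 was paired with Klf2, the transcription factor that drives S1pr1 in T cells, and r was 0.21 (p = 0.644) and rho was 0.18 (p = 0.692). With Cd69, whose protein holds S1PR1 inside the cell, r was 0.13 (p = 0.768) and rho was 0.079 (p = 0.861). The last 2 relations changed sign without the 2 farthest arrays, at -0.44 and -0.15. For S1pr1 the 2 farthest were allogeneic arrays 1 and 3, where it was below the background limit. Adjusted over the 5 pairs, p-values were 0.652 to 0.868 for r and 0.861 for rho.

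The other genes of these pathways were read in 8 lists of 152 genes, of which 141 had a named probe set. By limma on the leading probe set of each gene, 0 of the 141 passed, against 0.423% of 18193 genes, and 18 had an unadjusted p under 0.05, against 15.4% of all genes. Their median difference was 0.0080, and that of all genes was 0.011. Groups did not overlap at the leading probe set for 879 of the 18193 genes. Genes named below were chosen mainly by small p, so non-overlap among them describes those genes only.

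Of 18 measured chemokine receptors, 10 had a positive difference, 0 passed (5 at an unadjusted p under 0.05) and the median was 0.040. Ccrl2, an atypical receptor that binds chemerin, had levels of 6.55, 7.72, 6.52, 7.08 and 7.19 in allogeneic samples, against 5.49, 6.14, 6.00, 5.31 and 5.78 in syngeneic samples. These groups did not overlap, and the difference of 1.27 (SE 0.261, adjusted p = 0.0779) passed in 7 of 20 other settings. Ccr9, a gut-homing receptor, differed by 0.89 (adjusted p = 0.230). Ccr6, the receptor for CCL20, differed by -0.94 (adjusted p = 0.215). Ackr3, the second CXCL12 receptor, and Cx3cr1, the fractalkine receptor, stayed under the limit on every array. Cx3cr1 and Ccr3, which also stayed under it on every array, were among the 5 with an unadjusted p under 0.05.

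Among 17 measured genes of chemokine receptor signalling, 7 had a positive difference, 0 passed (1 at an unadjusted p under 0.05) and the median was -0.013. Rgs16, a regulator that shortens G-protein signalling, differed by 0.61 (SE 0.168, adjusted p = 0.135), and the receptor kinase gene Grk3 by 0.51 (adjusted p = 0.323). Gnai3, an inhibitory G-protein subunit, differed by -0.20 (adjusted p = 0.399), and Arrb2, an arrestin, by -0.21 (adjusted p = 0.535).

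Of 20 other integrin subunits, 9 had a positive difference, 0 passed (2 at an unadjusted p under 0.05) and the median was -0.045. Itgb7, whose product pairs with the Itga4 chain to make the gut-homing integrin, had levels of 5.83, 7.23, 7.46, 7.33 and 8.13 in allogeneic animals, against 6.41, 6.32, 5.80, 6.34 and 5.67 in syngeneic animals. Allogeneic animals 2 to 5 lay above all syngeneic animals and allogeneic animal 1 lay within their range. For Itga4 1436037_at, animals 2 to 5 lay below all syngeneic animals, but their order among themselves was not an exact reverse. The Itgb7 difference was 1.09 (SE 0.376, adjusted p = 0.193), or 1.44 without allogeneic animal 1 (adjusted p = 0.0196). It passed in 2 of 20 other settings. Itga6, a laminin-binding partner of Itgb1, differed by -0.013 (SE 0.137, adjusted p = 0.974). Itga5, the fibronectin-binding partner of Itgb1, differed by -0.43 (adjusted p = 0.344). The myeloid partners of Itgb2, Itgam and Itgax, stayed under the limit on every array. Itga1, a collagen-binding partner of Itgb1, exceeded the limit on allogeneic arrays 1, 3 and 4 and on 0 syngeneic arrays, with a difference of 1.62 (adjusted p = 0.321). Without those arrays it did not exceed the limit anywhere, and the difference was 0.15 (adjusted p = 0.910). Itgb6, a chain found in epithelium, exceeded it on allogeneic arrays 3 and 4 and on 0 syngeneic arrays, and no fold is given for it.

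Of 23 genes listed under integrin activation, 9 had a positive difference, 0 passed and the median was -0.060. At an unadjusted p under 0.05 there were 3, Filip1l among them. Skap1, an adaptor in T-cell integrin activation, differed by 0.60 (SE 0.153, adjusted p = 0.120) with groups that did not overlap. Rasgrp2, the Rap1 exchange factor that triggers integrin activation, differed by 0.32 (adjusted p = 0.255), Itgb1bp1, an inhibitor that binds the Itgb1 tail, by 0.30 (adjusted p = 0.387), and Filip1l by -0.39 (adjusted p = 0.185).

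Of 17 selectin and selectin ligand genes, 12 had a positive difference, 0 passed (3 at an unadjusted p under 0.05) and the median was 0.22. St3gal6, a sialyltransferase used for selectin ligands, had levels of 11.52 to 11.99 in allogeneic samples, against 11.19 to 11.49 in syngeneic samples (difference 0.40, SE 0.129, adjusted p = 0.171). Tpst1, which sulphates tyrosines of PSGL-1, had levels of 10.66 to 10.73 in allogeneic samples, against 10.27 to 10.55 in syngeneic samples (difference 0.31, SE 0.11, adjusted p = 0.2002). Neither pair of ranges overlapped. The sialyltransferase gene St3gal4 differed in the other direction, by -1.33 (SE 0.373, adjusted p = 0.139), and exceeded the limit on 2 allogeneic and 5 syngeneic arrays. Selp, the gene of P-selectin itself, differed by 0.52 (adjusted p = 0.302).

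Of 15 genes of the sphingosine-1-phosphate pathway, 9 had a positive difference, 0 passed (2 at an unadjusted p under 0.05) and the median was 0.085. Plpp3, a membrane phosphatase that degrades lipid phosphates outside the cell, had levels of 8.08, 8.81, 8.72, 8.65 and 8.19 in allogeneic samples, against 7.56, 7.58, 7.10, 7.14 and 7.69 in syngeneic samples. The groups did not overlap, and the difference of 1.08 (SE 0.199, adjusted p = 0.0573) passed in 6 of 20 other settings. Spns2, the exporter of sphingosine-1-phosphate, differed by -0.63 (SE 0.222, adjusted p = 0.198). Sgpl1, the lyase that breaks it down, differed by 0.24 (adjusted p = 0.326) with groups that did not overlap. Klf2 differed by -0.56 (adjusted p = 0.423) and Cd69 by 0.11 (adjusted p = 0.782).

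Of 16 genes listed under CD44 partners and hyaluronan, 5 had a positive difference, 0 passed (0 at an unadjusted p under 0.05) and the median was -0.016. Nf2 and Rdx, which encode merlin and radixin of the family that links CD44 to actin, differed by -0.28 (adjusted p = 0.318) and -0.23 (adjusted p = 0.370). Ptpn22, a lymphoid phosphatase, differed by -0.40 (adjusted p = 0.387), and Lyve1, a hyaluronan receptor of lymphatic vessels, by 0.79 (adjusted p = 0.382).

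Of 15 niche ligands, 10 had a positive difference, 0 passed (2 at an unadjusted p under 0.05) and the median was 0.10. Those 2 were Lama4 and Jam3, both under the limit on every array. Cxcl12, the ligand of CXCR4, stayed under the limit on all 10 arrays, as did Lama4, Jam3 and Emcn. Icam1, the ligand of LFA-1, had levels of 10.31, 10.52, 10.90, 10.02 and 10.30 in allogeneic samples, against 10.23, 10.27, 10.27, 9.84 and 10.21 in syngeneic samples (difference 0.25, SE 0.179, adjusted p = 0.509). Vcam1, the ligand of VLA-4, exceeded the limit on all 10 arrays and differed by -0.29 (SE 0.421, adjusted p = 0.764). Fn1, the gene of fibronectin, exceeded it on 2 allogeneic and 1 syngeneic arrays. Thbs1, which encodes thrombospondin-1, exceeded it on 2 arrays of each group and differed by -0.22 (adjusted p = 0.463).

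Many of these list genes moved in the fit without allogeneic animals 1, 3 and 4, which leaves 2 allogeneic animals. No other set of 3 animals was left out. The part of these arrays and that of the smaller group therefore cannot be told apart. Without allogeneic animals 1, 3 and 4, Ccrl2 differed by 1.76 (adjusted p = 0.0334) and Itgb7 by 1.61 (adjusted p = 0.0474), so both passed. Differences became smaller by over 1.5 times for Ccr9 (0.087), Grk3 (0.12), Itgb6 (0.81), Itga1 (0.15), Itga5 (-0.0086), St3gal4 (-0.86), Spns2 (-0.28) and Cd69 (0.035). They became larger by over 1.5 times for Itga6 (-0.057), Itgb1bp1 (0.51), Selp (0.80), Rdx (-0.38) and Fn1 (1.77), and changed sign for Lyve1 (-0.049) and Vcam1 (0.56). None of the 15 genes in these last 2 sentences passed, with adjusted p-values from 0.0749 to 0.986.

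**Figure D4:**
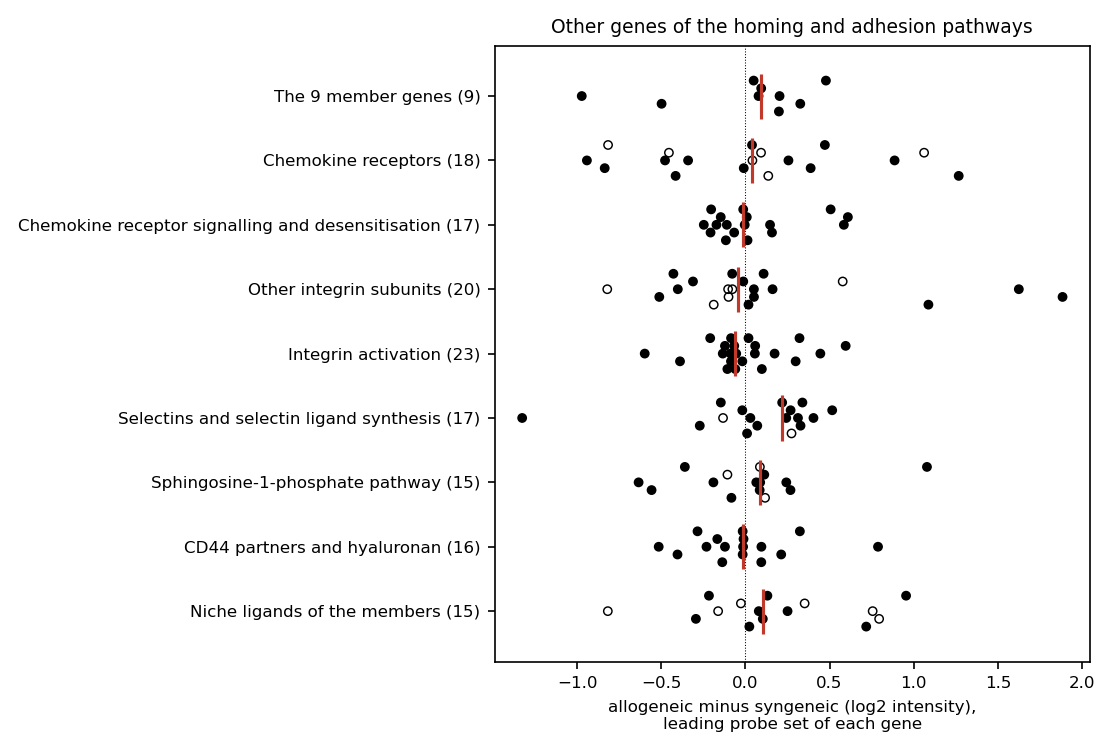
Difference of each gene of the 8 lists and of the 9 homing genes (top row), allogeneic minus syngeneic on the log2 scale, for the leading probe set of each gene. Open points are genes above the background limit on no array, red bars are list medians and the number of genes is in brackets. Medians of the 8 lists lie between -0.060 and 0.22.

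In the lists of other cell types, the brightest marker of each was read beside these genes. Bst2, counted as a dendritic cell marker and also interferon-inducible, rose by 1.37 (SE 0.188, adjusted p = 0.0171), and was the 1 of 8 dendritic cell markers that passed. Without syngeneic animal 1, 3 or 5 it did not pass (adjusted p = 0.0607, 0.0504 and 0.0624). Of the 8 dendritic cell markers, 6 had a positive difference, 4 had an unadjusted p under 0.05 and 2 exceeded the limit on no array. Their median was 0.53. Cd209a, under the limit on every array, was among the 4. Of 9 NK cell markers, 6 had a positive difference, 0 passed (2 at an unadjusted p under 0.05) and 5 exceeded the limit on no array, with a median of 0.27. Those 2 were Gzma and Klrk1, and Klrk1 stayed under the limit on every array. The brightest, the granzyme gene Gzma, differed by 1.06 (adjusted p = 0.110), or 1.38 without allogeneic animals 1, 3 and 4 (adjusted p = 0.0395). The other NK markers above the limit on all arrays, Klrd1 and Prf1, differed by -0.30 and -0.20. In the granulocyte, T cell and erythroid lists, S100a8 differed by 0.32, Cd2 by 0.14 and Klf1 by 0.28. In the platelet, plasma cell and endothelium lists, Pf4 differed by 0.25, Xbp1 by -0.30 and Pecam1 by 0.41. Adjusted p-values from S100a8 to Pecam1 ran from 0.256 to 0.758. Of 9 measured T cell markers, Cd2 and Cd8a exceeded the limit on all arrays. Cd2 had mean levels of 12.61 in allogeneic and 12.46 in syngeneic samples, against 4.91 and 4.44 for Cd3e and 4.42 and 3.90 for Cd3g. Cd3d had mean levels of 4.85 in allogeneic and 5.57 in syngeneic samples. It exceeded the limit on 3 allogeneic and 5 syngeneic arrays. Cd2 alone therefore does not show T cells, and the cells that gave these signals were not tested. Klf1 differed by 0.59 and Pf4 by 0.52 without allogeneic animals 1, 3 and 4 (adjusted p = 0.137 and 0.196). Their lists did not share this direction. Of 5 measured erythroid markers, 2 had a positive difference, with a median of -0.028. Of 5 measured platelet markers, 2 had a positive difference, with a median of -0.15. Of 8 mature B and plasma cell markers, 0 had a positive difference, 0 passed (1 at an unadjusted p under 0.05) and the median was -0.25. The 13 stroma and endothelium markers summed to 842 to 1078 in allogeneic samples, against 619 to 819 in syngeneic samples, and 12 of 13 had a positive difference. Of these, 2 (Pecam1 and Mgp) exceeded the limit on all arrays and 4 on no array. Pecam1, with mean levels of 9.16 in allogeneic and 8.75 in syngeneic samples, was by far the brightest and weighed most in the sums. Cdh5 and Kdr exceeded the limit on 1 allogeneic array each, and Cxcl12, Vwf and Emcn on no array. The part of stroma and endothelium in the values above was not tested.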

How the data were processed

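The authors deposited 1 linear intensity per probe set and array; the labels do not state how these intensity values were summarised or scaled. Per the labels' protocols, cells went into Trizol and biotinylated cDNA was made with NuGEN kits. Intensities were put on the log2 scale, quantile normalized and tested with limma 3.58.1 (lmFit and eBayes defaults, R 4.3.3) over 45037 probe sets, leaving out 64 controls and applying no filter on low values. Benjamini-Hochberg adjustment ran over all of them and the threshold was an adjusted p of 0.05. The platform annotation named 34945 probe sets with 1 gene, 932 with several and 9160 with none, and symbols were updated by gene identifier for 34741. A gene was led by its probe set of highest mean.

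Named were all 22 probe sets, up to 4 genes per list with the smallest p, known partners and ligands of the 9 genes, and the brightest marker of each cell type. The genes, lists and tests were chosen with earlier results of these data known. The tests were checked on simulated data with known changes. The values simulated for limma had the same SD in both groups, so that check does not cover the larger allogeneic spread of most probe sets.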

Additional observations from a re-analysis of the deposited data

Results flagged for a closer look

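In 130 groups of 5 animals, each a probe set described above in 1 of the 2 groups, the highest or lowest animal was compared with the spread of the others, and 9 stood apart by Dixon's criterion. Chance would give about 1 in 20 groups. Syngeneic animal 4 accounted for 6 of the 9: it was high for Itgb1 1426918_at (9.95, the others 9.22 to 9.31) and Rgs16 (9.51, the others 8.86 to 9.04), and low for Arrb2 (10.71, the others 11.16 to 11.25), Icam1 (9.84, the others 10.21 to 10.27), Xbp1 (12.52, the others 12.96 to 13.13) and Itga1 (2.38, the others 3.82 to 4.36, all below background). Syngeneic animal 1 was low for Itgb1bp1 (10.78, the others 10.97 to 11.04). Allogeneic animal 4 was high for Tpst1 (10.73, the others 10.66 to 10.68) and allogeneic animal 5 for Vpreb1 (13.73, the others 13.65 to 13.67).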

How the results depend on the processing

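The count of homing probe sets that passed, 0, became 1 with probe sets dimmer than the median left out, with 16 added before log2 and with eBayes trend and robust, and 2 with array weights and without allogeneic animals 1, 3 and 4; leaving out 1 animal gave 0 to 2. The count for the pathway lists, 0, became 1 on deposited log2 values and with 1 probe set per gene, 2 with 16 added, with trend and robust and with array weights, 3 with those dimmer probe sets left out and 5 without allogeneic animals 1, 3 and 4; leaving out 1 animal gave 0 to 3. Over all probe sets the 185 calls became 631 with those dimmer probe sets left out, 510 with 16 added, 482 with trend and robust, 1398 with array weights and 70 to 2035 with 1 animal left out. Adjusted over genes, 106 passed with the leading probe set and 71 with the mean of probe sets. Animal numbers did not pair the samples (correlations of deviations 0.34, 0.37, -0.012, -0.24 and -0.15), and with the replicate block 0 homing probe sets, 0 list genes and 7 of all probe sets passed. Bst2 no longer passed with that block (adjusted p = 0.123).

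No change of direction was seen for 13 of the 22 probe sets in the 17 to 20 other settings run for each, the Cd44, Ccr7 and Selplg probe sets and Itga4 1436037_at among them. Other differences changed sign. On deposited log2 values they were -0.022 for Cxcr4, -0.079 for Itga4 1456498_at and -0.020 for Vpreb1. Scaled to the 75th percentile, Itga4 1456498_at was -0.055 and Thbs1 0.0035. With array weights, Itga4 1456498_at was -0.14, Itgb1 1426919_at -0.069, Itgal 1435560_at -0.046 and Vcam1 0.13. Without allogeneic animals 1, 3 and 4, Cxcr4 was -0.017, Itga4 1427615_at 0.070, Itga4 1456498_at -0.60, Itgb1 1426919_at -0.34, Itgb1 1426920_x_at -0.37, S1pr1 0.43, Lyve1 -0.049 and Vcam1 0.56. With the mean of a gene's probe sets, Itga6 was 0.037, Rasgrp2 -0.066 and Vcam1 0.20. Leaving out 1 animal, Itga4 1427615_at ran from -0.83 to 0.29, Itga4 1450155_at from -0.27 to 0.14, Itga4 1456498_at from -0.20 to 0.17, Itgal 1435560_at from -0.0031 to 0.17, Itgb2 from -0.0077 to 0.18, Itga6 from -0.079 to 0.053 and Vcam1 from -0.67 to 0.0023. Without the 2 farthest arrays, allogeneic 1 and 3, the correlations of S1pr1 were -0.44 with Klf2 and -0.15 with Cd69. The cause of these changes was not tested.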
